A study of Mus musculus with 6 samples.

Results

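The genes described here belong to the solute carrier families Slc1, Slc3, Slc6, Slc7, Slc15, Slc16, Slc36, Slc38 and Slc43. These families are known for transport of amino acids, oligopeptides and monocarboxylates, and some members carry other substrates, such as creatine or purine bases. The families were chosen with earlier results of these data known, and their genes were then taken by symbol. Every gene whose probe set had a single symbol in the platform annotation starting with one of these family names was taken, and the brightest probe set stood for the gene. This gave 81 genes on 156 probe sets, out of 18193 genes with a single symbol on the array. Of the 81, 3 (Slc7a6os, Slc36a1os and Slc6a19os) are named as opposite strand transcripts of a transporter gene and are not transporters themselves. The samples were mammary glands of female bitransgenic mice, which carried both the LH transgene (the labels give only these letters) and MMTV-neu. In MMTV-neu mice the mouse mammary tumour virus promoter drives the neu (Erbb2) oncogene, mainly in mammary epithelium. Glands at 10 weeks of age (3 arrays) were set against glands at 5 weeks of age (3 arrays), and each array held RNA pooled from 3 animals, for 9 animals per age. Both ages carried both transgenes, so the comparison is of age within this cross, and non-transgenic glands were not analysed here.

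A gland that makes milk protein has to bring amino acids across the basolateral membrane of its epithelium. Several of the carriers that do so are exchangers. SLC3A2, a heavy chain, places light chains such as SLC7A5, SLC7A7 or SLC7A8 in the membrane, and these swap 1 amino acid for another. Sodium-coupled carriers of the SLC1 and SLC38 families concentrate small neutral and acidic amino acids in the cell, SLC7A1 carries arginine and lysine, SLC15 and SLC36 carriers use the proton gradient, and SLC16 carriers move lactate, pyruvate and related acids. Fat cells and muscle fibres use other members of the same families, so a gland sample mixes the transporters of several cell types.

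Values are signal intensities on a linear scale, and differences are 10 weeks minus 5 weeks on the scale of log2(signal + 32), which understates the differences of dim genes. A gene is said to have risen or fallen where limma, fitted over all 27023 probe sets tested, gave a Benjamini-Hochberg adjusted p under 0.05. Signals of different probe sets are not comparable with each other, and no detection call is given in the sources used here. The arrays had median signals between 156.4 and 172.5. Log2 signals correlated at 0.973 to 0.978 within an age and at 0.932 to 0.955 across ages. The p-values measure the spread between these pools of animals, and having 3 arrays an age limits the precision. In these bulk samples fewer cells of a type and less RNA per cell cannot be told apart.

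Of the 81 genes, 49 passed the filter on dim probe sets (48 transporters and Slc7a6os), and 27 of the 49 passed the test: 14 rose and 13 fell at 10 weeks. Over all 13002 genes tested, 34.1% passed, 15.3% higher and 18.7% lower, against 55.1% of the members. At least 1 on the log2 scale separated the ages in 10 of the 49 members that also passed the test (20.4%), where the share over all genes was 10.4%. The median difference of the members was 0.06, near the 0.00 of all genes, while the median absolute difference was 0.52 among the members and 0.31 among all genes. The 3 pools of each age did not overlap in 31 of the 49 members (63.3%), against 50.3% of all genes. By family, all 4 Slc1 genes, all 3 Slc43 genes, Slc3a2 and 6 of 8 Slc16 genes passed, and none of 9 Slc6 genes did. Increases and decreases lay side by side within the Slc7, Slc43, Slc1, Slc38 and Slc16 families, while each of the 3 Slc36 genes that passed was lower.

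**Figure D1:**
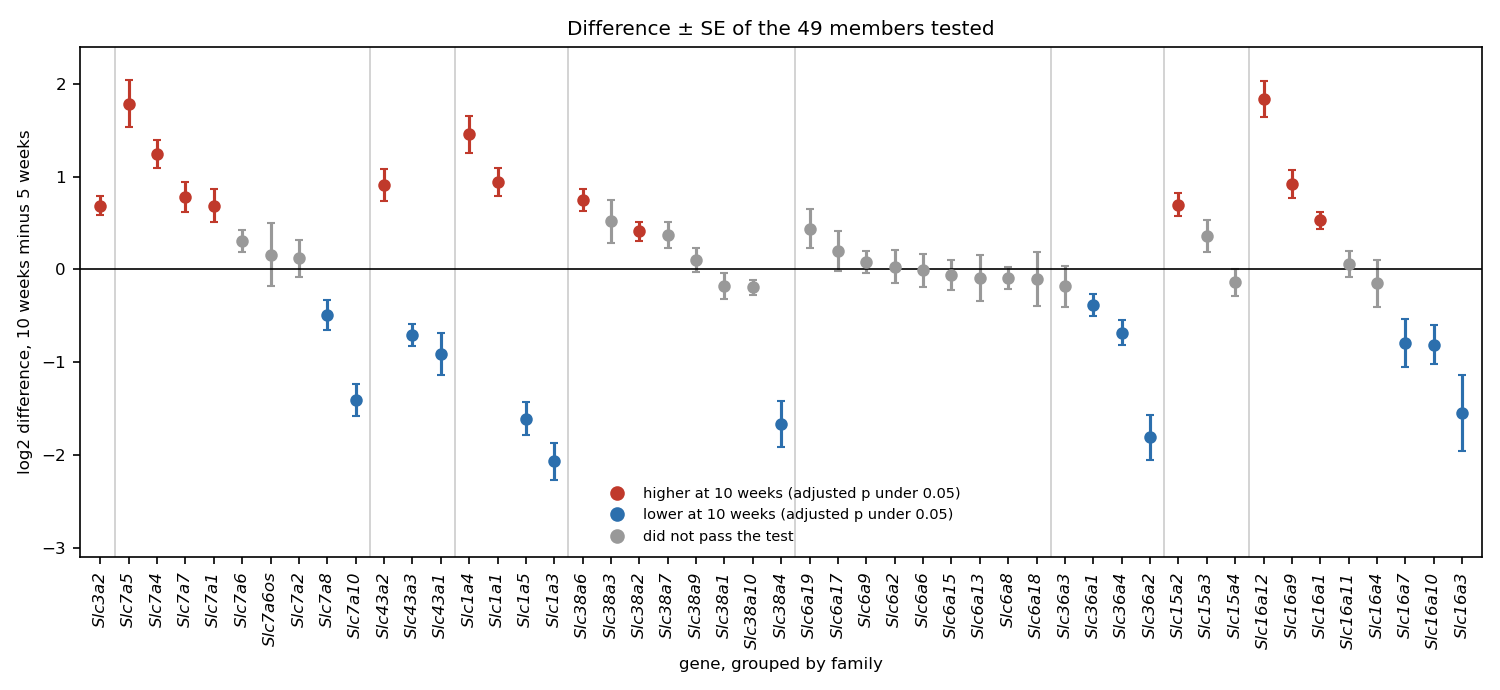
Log2 difference (10 weeks minus 5 weeks, vertical axis) with its standard error for the 49 members tested, grouped by family along the horizontal axis. Red points are the 14 genes that rose, blue points the 13 that fell and grey points the 22 that did not pass the test, among them all 9 Slc6 genes.

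The heavy chain Slc3a2 and the light chains Slc7a5 and Slc7a7 rose, and the light chains Slc7a8 and Slc7a10 fell. Slc3a2, the heavy chain gene, had signals of 5754.5, 6020.8 and 5688.5 at 10 weeks, against 3729.4, 3173.1 and 3955.4 at 5 weeks. Every 10-week pool lay well above every 5-week pool, and the log2 difference was 0.69 ± 0.10 (SE, limma adjusted p = 0.00147). Slc7a5, the light chain that exchanges leucine and other large neutral amino acids for glutamine, had signals of 4003.8, 3163.5 and 3175.4 at 10 weeks and 1486, 925.2 and 649.6 at 5 weeks. Its mean was 3448 ± 482 at 10 weeks and 1020 ± 426 at 5 weeks (SD, n = 3 each), a ratio of 3.38 and a log2 difference of 1.79 ± 0.25 (SE, limma adjusted p = 0.0011), the second largest increase among the members. Every 10-week pool lay above every 5-week pool, and with 1 pool left out the difference was between 1.52 and 2.10.

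Slc7a7, the light chain that exports cationic amino acids against neutral ones and sodium, also rose, with signals of 1067.7, 795.4 and 942.1 at 10 weeks and 519.7, 446.5 and 628.6 at 5 weeks (log2 difference 0.78 ± 0.16 SE, limma adjusted p = 0.00702). Both of its tested probe sets passed, with differences of 0.59 and 0.78. Its promoter is shown because it holds letters of the amino acid response element, to which ATF4 dimers bind, and genes of the amino acid response are described below. The element was searched as TGATGNAA on both strands in the window from 250 bases before to 50 bases after each start in RefSeq's GRCm38.p6, and matches are in capitals. RefSeq gives Slc7a7 5 such windows, of which 2 that overlap hold the element and 3 do not. The one shown lies at chr14:54417895-54418194 on the minus strand, and its matches begin 141 bases and 1 base before the start site.
Slc7a7 promoter: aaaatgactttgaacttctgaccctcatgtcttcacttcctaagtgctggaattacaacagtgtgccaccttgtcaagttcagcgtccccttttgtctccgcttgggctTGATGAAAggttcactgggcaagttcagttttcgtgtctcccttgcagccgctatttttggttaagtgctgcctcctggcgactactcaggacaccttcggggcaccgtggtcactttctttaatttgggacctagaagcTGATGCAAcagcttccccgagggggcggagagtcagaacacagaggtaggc

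Slc7a10, the light chain for small neutral amino acids and D-serine that is also known as a surface marker of white fat cells, had signals of 492.1, 576.3 and 620.1 at 10 weeks and 1229.4, 1953.1 and 1517.5 at 5 weeks. The ages lay far apart, and the log2 difference was -1.41 ± 0.17 (SE, limma adjusted p = 0.000567). Slc7a8, the light chain known for exchange of neutral amino acids across basolateral membranes, had signals of 204.5, 221.7 and 211.8 at 10 weeks and 271.5, 299.3 and 369.3 at 5 weeks. This difference of -0.49 ± 0.16 (SE) only just passed (limma adjusted p = 0.0468). It did not pass without 10-week pool 1 (-0.46), 10-week pool 2 (-0.51), 10-week pool 3 (-0.49), 5-week pool 2 (-0.51) or 5-week pool 3 (-0.37). Slc7a6, a partner of SLC3A2 with the same exchange mode as SLC7A7, had a difference of 0.31 that did not pass (limma adjusted p = 0.0791), although its pools did not overlap.

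Slc7a11, the cystine-glutamate exchanger that feeds glutathione synthesis, was too dim for the filter. It had signals of 115.8, 99.0 and 63.8 at 10 weeks and 29.4, 15.9 and 30 at 5 weeks. The ages did not overlap, and in the fit without a filter the log2 difference was 1.12 (limma adjusted p = 0.0142). The other heavy chain, Slc3a1, and the light chains Slc7a9, Slc7a12, Slc7a13 and Slc7a15 were also left out by the filter.

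Among the transporters of cationic amino acids, Slc7a1 and Slc7a4 rose. Slc7a1, the widespread arginine and lysine carrier, had signals of 1252.9, 1408.6 and 875.5 at 10 weeks and 738.3, 613.9 and 768.3 at 5 weeks. Its 10-week pool 3 lay close above the highest 5-week pool, and the difference was 0.69 ± 0.18 (SE, limma adjusted p = 0.0198). It did not pass without 10-week pool 1 (0.64), 10-week pool 2 (0.55) or 5-week pool 2 (0.60). Another probe set of Slc7a1 also rose (0.62), and a dim one did not pass (-0.11), so that the mean over the 3 gave 0.40. Slc7a4, a relative of the cationic carriers whose own transport activity is less settled, had signals of 1399.9, 1255.2 and 1302.3 at 10 weeks and 646.3, 424.5 and 556.8 at 5 weeks. All 3 of its probe sets rose, by 0.85 to 1.33 on the log2 scale, and the brightest had a difference of 1.25 ± 0.15 (SE, limma adjusted p = 0.00058). Slc7a2, the inducible arginine carrier, did not pass on any of 4 probe sets (brightest 0.12, limma adjusted p = 0.703), and 10-week pool 1 was its highest pool at 1410.2, against 762.7 to 921.2 in the others. Slc7a3 and Slc7a14 were left out by the filter, and the opposite strand transcript Slc7a6os did not pass (0.16).

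**Figure D2:**
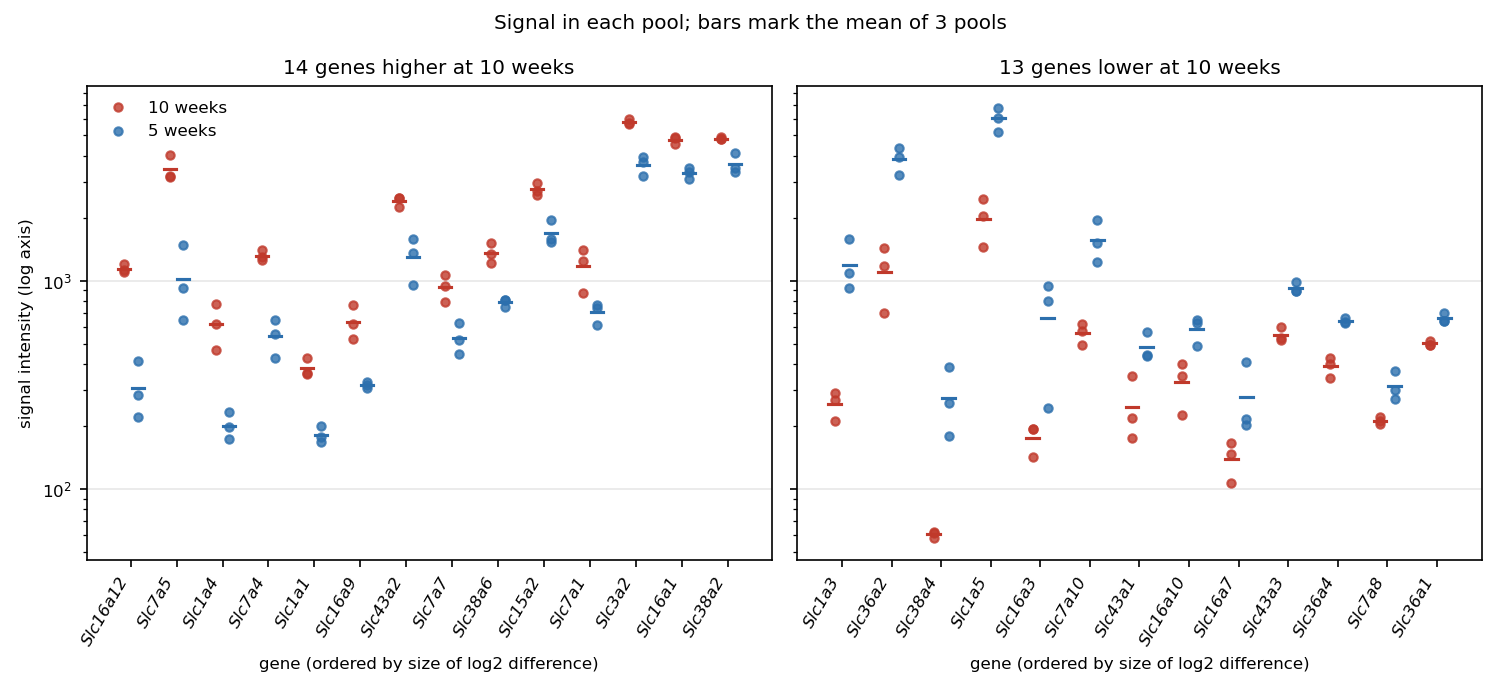
Signal intensity (vertical log axis) of the 27 members that passed the test, in each of the 3 pools at 10 weeks (red, left of each pair) and at 5 weeks (blue), with bars at the means. In both panels the ages separate for each gene shown; for Slc16a3 the 5-week pools lie at 801.2, 244.5 and 940.

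The facilitated carriers of the Slc43 family split. Slc43a2, a carrier of branched-chain and aromatic amino acids, had signals of 2489.5, 2498.4 and 2261.1 at 10 weeks and 1588.7, 950.5 and 1358.9 at 5 weeks. Its log2 difference was 0.91 ± 0.17 (SE, limma adjusted p = 0.00473), and a second probe set gave 1.11. Slc43a1, its close relative with like substrates, had signals of 175.3, 349.9 and 219.2 at 10 weeks and 438.7, 436.2 and 567.7 at 5 weeks (-0.91 ± 0.23 SE, limma adjusted p = 0.0174). That call ended without 10-week pool 1 (-0.72), 10-week pool 3 (-0.86) or 5-week pool 3 (-0.79). Slc43a3, known in human cells as a carrier of purine bases rather than amino acids, had signals of 520.5, 598.1 and 534 at 10 weeks and 894.8, 984 and 890.7 at 5 weeks (-0.71 ± 0.12 SE, limma adjusted p = 0.00233). Slc43a1 and Slc43a3, which both fell, lie near each other in the genome, with 1 protein-coding gene between them in the RefSeq table of GRCm38.p6.

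All 4 Slc1 genes tested passed, 2 in each direction, where 34.1% of all genes passed. The neutral amino acid exchangers of the family moved apart: Slc1a4, which carries alanine, serine and cysteine, rose, and Slc1a5, the main glutamine exchanger, fell. Slc1a4 had signals of 778, 463.4 and 621 at 10 weeks and 197.7, 173.7 and 233.8 at 5 weeks, a ratio of means of 3.08. Its difference was 1.46 ± 0.20 (SE, limma adjusted p = 0.000948) on the brightest probe set, and the other 2 gave 0.91, which passed, and 0.48, which did not, for a mean over the 3 of 0.95. Slc1a5 had signals of 1456.1, 2038.6 and 2471.7 at 10 weeks and 5191.4, 6804.5 and 6090 at 5 weeks. The ages lay far apart, with a difference of -1.61 ± 0.18 (SE, limma adjusted p = 0.000408), and its second probe set fell as well (-1.33).

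The promoter of Slc1a4 is shown for the same element as that of Slc7a7. It lies at chr11:20332664-20332963 on the minus strand, and the match, in capitals, reads TTGCATCA, the element on the opposite strand, from 4 bases before the start site.
Slc1a4 promoter: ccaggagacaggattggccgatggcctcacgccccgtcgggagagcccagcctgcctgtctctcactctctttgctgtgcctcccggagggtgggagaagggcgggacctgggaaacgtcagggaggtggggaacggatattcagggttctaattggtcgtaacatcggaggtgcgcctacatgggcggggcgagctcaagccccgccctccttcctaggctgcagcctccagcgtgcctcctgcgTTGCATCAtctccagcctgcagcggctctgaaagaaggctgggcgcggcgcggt
Among the windows of the members that rose, 3 of 18 held the element, all of them windows of Slc1a4 or Slc7a7 and the pair of Slc7a7 overlapping. Only 12 of the members that rose had a window, and Slc7a5 had none. The element stood in 0 of 11 windows of the members that fell and in 0 of 19 of the tested members that did not pass. Over all members it stood in 6 of 80 windows (7.5%), the rest of them in members left out by the filter. Of 32851 windows in the table, 3.97% held it.

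The acidic amino acid carriers of the Slc1 family also moved apart. Slc1a3, the glutamate and aspartate carrier best known from astrocytes, showed the largest decrease among the members tested. Its brightest probe set, whose ID ends in _x_at, the array maker's mark for probes that may match other transcripts, had signals of 212, 288.8 and 267.9 at 10 weeks and 920.1, 1587.2 and 1088.2 at 5 weeks (-2.07 ± 0.20 SE, limma adjusted p = 0.000217). The other 3 probe sets of Slc1a3 tested fell too, with log2 differences between -2.37 and -1.22. Slc1a1, the glutamate, aspartate and cysteine carrier of epithelia and neurons, had signals of 355.6, 427.3 and 359.3 at 10 weeks and 168.9, 199.8 and 177.9 at 5 weeks (0.94 ± 0.15 SE, limma adjusted p = 0.002). Both of its tested probe sets rose. Slc1a2, Slc1a6 and Slc1a7, carriers known mainly from brain and retina, were left out by the filter.

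**Figure D3:**
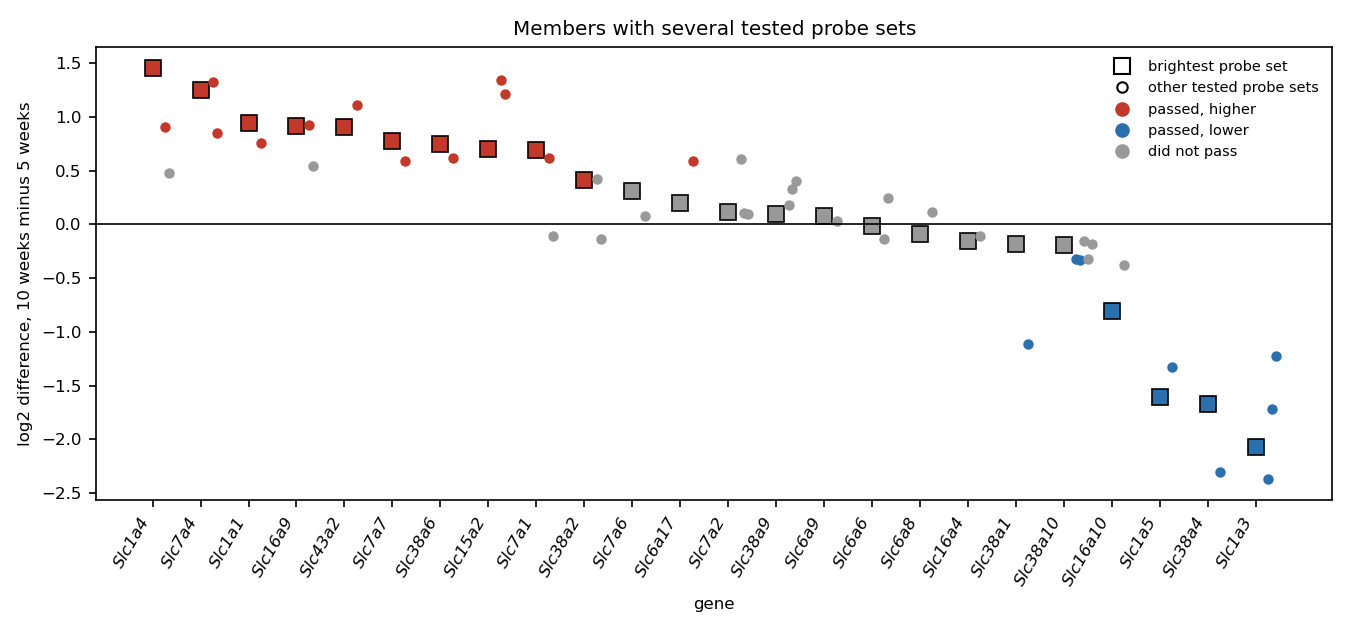
Log2 difference (vertical axis) of every tested probe set of the 24 members with several of them; squares are the brightest probe set and circles the others. Colours mark probe sets that passed higher (red), passed lower (blue) or did not pass (grey). In 13 genes 2 or more probe sets passed the same way, and in 0 genes did probe sets pass in opposite ways.

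In the Slc38 family of sodium-coupled neutral amino acid transporters, 2 of 8 rose and 1 fell. The share that passed, 37.5%, was near the 34.1% of all genes. Slc38a2, the carrier of small neutral amino acids that cells raise when amino acids are short, had signals of 4778.1, 4899.6 and 4808 at 10 weeks and 4129.1, 3325.7 and 3492.2 at 5 weeks. The 10-week pools lay close together, and the difference was 0.41 ± 0.10 (SE, limma adjusted p = 0.0169). It did not pass without 10-week pool 2 (0.40) or 5-week pool 2 (0.34), nor as the mean of its 3 probe sets (0.23, limma adjusted p = 0.156). Slc38a6, a less studied member, had signals of 1515.4, 1347.1 and 1220.8 at 10 weeks and 813.5, 811.5 and 750.6 at 5 weeks (0.75 ± 0.12 SE, limma adjusted p = 0.00178), and its second probe set rose too (0.62).

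Slc38a4, a carrier of neutral amino acids that is imprinted in mice, fell. It had signals of 61.7, 62.2 and 58.1 at 10 weeks and 259.5, 180.4 and 385.1 at 5 weeks (log2 difference -1.67 ± 0.25 SE, limma adjusted p = 0.00134). Its 10-week signals were all under the filter limit of 102.5, so it was tested only through its 5-week level, and the size of its difference is uncertain. Its other probe set had a log2 difference of -2.3 (limma adjusted p = 0.00339), with 10-week signals of 16.3, 21.1 and 63.6. These were under the limit as well, so that probe set has the same restriction. The counts of members that fell include Slc38a4. Slc38a1, which carries glutamine, did not pass on its brightest probe set (-0.18), while its dimmer one fell, with signals of 166, 230.3 and 280.2 at 10 weeks and 417.7, 532.8 and 607.1 at 5 weeks (-1.11, limma adjusted p = 0.00433). Slc38a10 likewise had 2 of 6 tested probe sets that fell (-0.32 and -0.33), and its brightest did not pass (-0.19). Slc38a3 (0.52), Slc38a7 (0.37) and Slc38a9 (0.10), the lysosomal arginine sensor upstream of mTORC1, did not pass, and Slc38a5 was left out by the filter. Slc38a1, Slc38a2 and Slc38a4 follow each other in the genome with no other protein-coding gene between them in the RefSeq table.

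None of the 9 Slc6 genes tested passed on its brightest probe set, with differences between -0.10 and 0.44, where 34.1% of all genes passed. Slc6a6, the taurine carrier, had signals of 1110, 982.1 and 1056 at 10 weeks and 845.8, 1445.7 and 952.5 at 5 weeks, so the ages overlapped (log2 difference -0.01 ± 0.18 SE, limma adjusted p = 0.984). With this standard error a moderate difference in either direction could go undetected. Slc6a8, the creatine carrier, had a mean of 993 ± 57.4 at 10 weeks and 1065 ± 108 at 5 weeks (SD, n = 3 each), and Slc6a9, the glycine carrier GlyT1, had 825 ± 58.8 and 777 ± 51.4 in the same order. The others tested were Slc6a2 (0.03), Slc6a13 (-0.09), Slc6a15 (-0.06), Slc6a17 (0.20), Slc6a18 (-0.10) and Slc6a19 (0.44). A dimmer probe set of Slc6a17 rose (0.59, limma adjusted p = 0.0473).

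The other 12 Slc6 genes did not reach the filter. Among them was Slc6a14, a carrier of both neutral and cationic amino acids known from epithelia, with signals of 102.9, 99 and 95.1 at 10 weeks and 54.9, 36.6 and 44.9 at 5 weeks. The ages did not overlap, and without the filter its log2 difference was 0.76 (limma adjusted p = 0.03). The rest, Slc6a3, Slc6a4, Slc6a5, Slc6a7, Slc6a11, Slc6a12, Slc6a16, Slc6a19os, Slc6a20a, Slc6a20b and Slc6a21, include the neuronal dopamine and serotonin carriers and an opposite strand transcript, and none of them passed without the filter.

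Of the proton-coupled carriers, 3 of 4 Slc36 genes tested fell, where 18.7% of all genes fell, and the oligopeptide carrier Slc15a2 rose. Slc36a2, a carrier of glycine, alanine and proline that is known as a surface marker of brown and beige fat cells, had signals of 699.6, 1184.3 and 1432.1 at 10 weeks and 3210, 4368.5 and 3943.9 at 5 weeks. The ages lay far apart, with a difference of -1.81 ± 0.24 (SE, limma adjusted p = 0.000741). Slc36a4 had signals of 343.2, 397.6 and 427.7 at 10 weeks and 625.5, 636.9 and 663.4 at 5 weeks (-0.68 ± 0.13 SE, limma adjusted p = 0.00484). Slc36a1, a lysosomal and intestinal carrier, had signals of 492.8, 516.9 and 491.3 at 10 weeks and 702.1, 643.4 and 639.8 at 5 weeks. Its difference of -0.38 ± 0.12 (SE, limma adjusted p = 0.0365) did not pass when any 1 of the 6 pools was left out: the values were -0.37, -0.40 and -0.37 without 10-week pools 1, 2 and 3, and -0.34, -0.40 and -0.40 without 5-week pools 1, 2 and 3. Slc36a3 did not pass (-0.18), and the opposite strand transcript Slc36a1os was left out by the filter. Slc36a3, Slc36a2 and Slc36a1 follow each other in the genome with no other protein-coding gene between them.

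The promoter of Slc36a1 is shown because it holds a pair of E-boxes, CACGTG, the letters bound by MYC and by TFEB, a regulator of lysosomal genes. It lies at chr11:55204090-55204389 on the plus strand. The E-boxes begin 31 and 3 bases before the start site, and the last one overlaps a match to the antioxidant response element core TGACNNNGC, so these letters run together in capitals.
Slc36a1 promoter: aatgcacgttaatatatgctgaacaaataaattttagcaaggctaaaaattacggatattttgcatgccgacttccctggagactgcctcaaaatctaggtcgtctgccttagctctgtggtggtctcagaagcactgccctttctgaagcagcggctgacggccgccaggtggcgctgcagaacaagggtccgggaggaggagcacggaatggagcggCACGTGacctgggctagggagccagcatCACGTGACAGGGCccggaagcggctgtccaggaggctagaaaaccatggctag
An E-box stood in 2 of 18 windows of the members that rose (Slc16a1 and Slc16a12), in 2 of 11 of those that fell (Slc36a1 and Slc43a1) and in 7.15% of all windows. The antioxidant response core stood in 4 of 18, 2 of 11 and 12.4%, and the STAT core TTCNNNGAA in 1 of 18, 1 of 11 and 8.3%. In the windows of tested members that did not pass, the counts were 1 of 19 for the E-box, 5 of 19 for the antioxidant response core and 1 of 19 for the STAT core.

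Slc15a2, the high-affinity carrier of dipeptides and tripeptides that mammary epithelium is known to express, had signals of 2593.4, 2697.5 and 2965.8 at 10 weeks and 1954.2, 1536 and 1582.9 at 5 weeks. The brightest probe set rose by 0.70 ± 0.12 (SE, limma adjusted p = 0.00284), and the other 2 rose by 1.34 and 1.21, for a mean over the 3 of 1.08. The lysosomal histidine and peptide carriers did not pass: Slc15a3 had a difference of 0.36 and Slc15a4 of -0.14. Slc15a1, the intestinal peptide carrier, and Slc15a5 were left out by the filter.

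Of 8 Slc16 genes tested, 3 rose and 3 fell, where 15.3% of all genes rose and 18.7% fell. Slc16a12, a creatine carrier, showed the largest increase among the members, with signals of 1203.4, 1133.2 and 1098.4 at 10 weeks and 411.3, 284 and 221.2 at 5 weeks. The ages lay far apart, and the difference was 1.84 ± 0.19 (SE, limma adjusted p = 0.000285). Its promoter, at chr19:34747279-34747578 on the minus strand, is shown as that of the leading gene, with an E-box 240 bases before the start site and 2 antioxidant response cores, 206 bases before and 23 bases after it, in capitals.
Slc16a12 promoter: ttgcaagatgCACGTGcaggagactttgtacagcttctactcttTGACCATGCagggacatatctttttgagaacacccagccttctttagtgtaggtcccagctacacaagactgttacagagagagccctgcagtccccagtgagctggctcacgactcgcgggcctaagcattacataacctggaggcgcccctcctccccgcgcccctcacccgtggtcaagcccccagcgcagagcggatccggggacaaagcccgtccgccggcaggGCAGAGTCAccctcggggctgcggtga

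Slc16a1, the lactate and pyruvate carrier MCT1, had signals of 4895.9, 4871.1 and 4560.1 at 10 weeks and 3073.1, 3494.6 and 3349.2 at 5 weeks. The pools of each age lay close together, and the difference was 0.53 ± 0.09 (SE, limma adjusted p = 0.00297). Slc16a9, linked in human to carnitine and urate levels, had signals of 763.6, 526.9 and 619.6 at 10 weeks and 306.2, 316.7 and 328.2 at 5 weeks (0.92 ± 0.15 SE, limma adjusted p = 0.00264). One of its other probe sets rose (0.93) and another did not pass (0.54).

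Slc16a3, the lactate carrier MCT4 of glycolytic muscle fibres, had signals of 142.4, 193.3 and 194.1 at 10 weeks and 801.2, 244.5 and 940 at 5 weeks. The ages did not overlap, but 5-week pool 2 lay near the 10-week pools, and the difference of -1.55 ± 0.41 (SE, limma adjusted p = 0.0218) had the widest error among the members that passed. It did not pass without 10-week pool 1 (-1.43), 5-week pool 1 (-1.32) or 5-week pool 3 (-1.21). The skeletal muscle marker list had its lowest 5-week mean in that same pool 2 (12.17, against 13.13 and 13.36), and its lowest of all in 10-week pool 1 (8.67, against 11.77 and 11.66), where Slc16a3 was lowest as well. The part of muscle tissue in the Slc16a3 result was not tested.

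The other decreases in the family were smaller. Slc16a10, the aromatic amino acid carrier TAT1, had signals of 228.1, 350.7 and 401 at 10 weeks and 485.8, 629.5 and 648.9 at 5 weeks (-0.81 ± 0.21 SE, limma adjusted p = 0.0187). It did not pass without 5-week pool 2 (-0.76) or 5-week pool 3 (-0.74), nor as the mean of its 2 probe sets (-0.60). Slc16a7, the high-affinity pyruvate and lactate carrier MCT2, had signals of 106.6, 147 and 166.8 at 10 weeks and 203.7, 405.5 and 217.2 at 5 weeks, and lay at the threshold (-0.79 ± 0.26 SE, limma adjusted p = 0.0495). The call ended without 10-week pool 1 (-0.65), 10-week pool 2 (-0.83), 10-week pool 3 (-0.91), 5-week pool 2 (-0.51), which had its highest signal, or 5-week pool 3 (-0.92). Slc16a4 (-0.15) and Slc16a11 (0.06) did not pass. Of the 5 that the filter left out, Slc16a5, Slc16a6 and Slc16a13 did not pass in the fit without it. Slc16a8, the lactate carrier of retinal pigment epithelium, had signals of 84.5, 137.7 and 233.9 at 10 weeks and 45.8, 52.7 and 36.8 at 5 weeks, and passed there (1.18, limma adjusted p = 0.0365). Slc16a14, a carrier with less known substrates, had signals of 21.6, 16.4 and 13.8 at 10 weeks and 60.4, 56.7 and 76.3 at 5 weeks, and passed lower (-0.97, limma adjusted p = 0.0076).

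**Figure D4:**
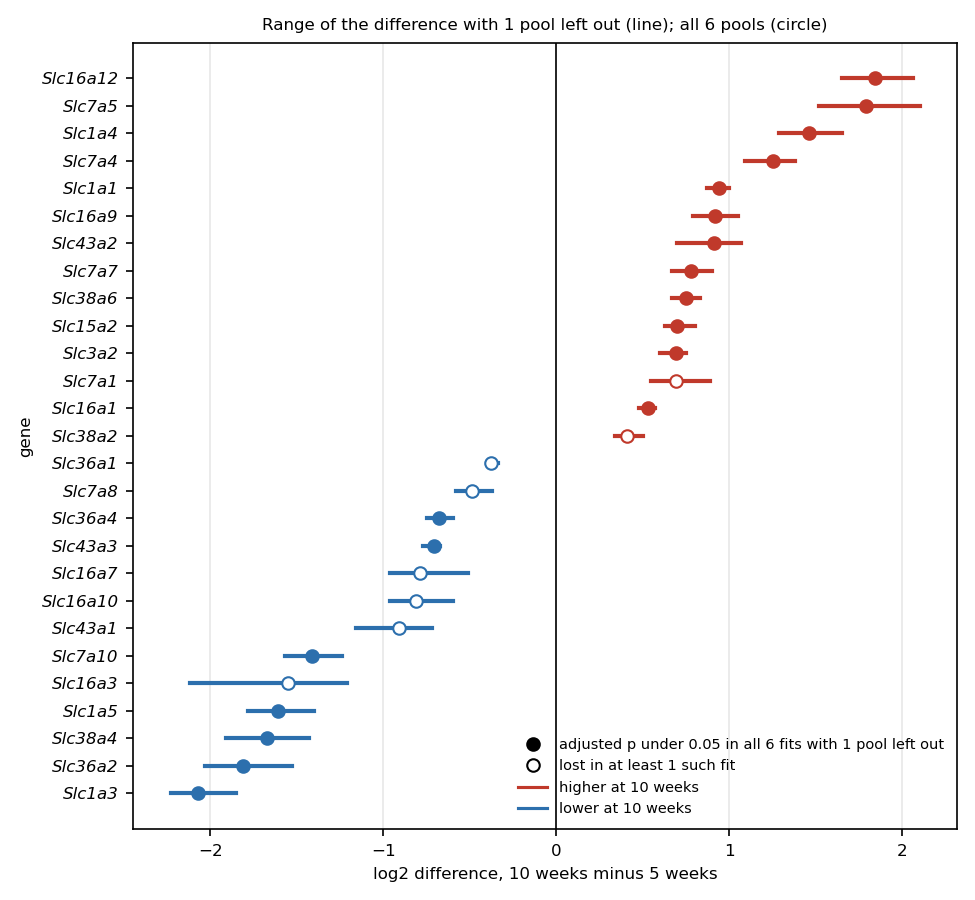
Log2 difference (horizontal axis) of the 27 members that passed, with all 6 pools (circle) and its range when each pool is left out in turn (line). Filled circles mark genes that passed in all 6 such fits and open circles the 8 that did not in at least 1: Slc7a1, Slc38a2, Slc36a1, Slc7a8, Slc16a7, Slc16a10, Slc43a1 and Slc16a3.

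Marker genes of several cell types differed with age as well, and are given here beside the transporters. Their counts stand beside the 15.3% of all 13002 genes tested that rose and the 18.7% that fell. Krt8, a keratin of luminal epithelium, had signals of 8412.5 to 9770.1 at 10 weeks and 5946.4 to 7776.7 at 5 weeks, so the labelled tissue held epithelium at both ages. Of 10 luminal epithelial markers 8 rose and none fell, and the list mean on the log2 scale was 12.29 to 12.51 in the 10-week pools and 11.34 to 11.71 in the 5-week pools. Of 6 adipocyte markers tested 4 fell and none rose, with means of 11.97 to 12.47 at 10 weeks and 12.74 to 13.17 at 5 weeks. Among 5 brown fat markers 4 fell, and the means of 10.24 to 11.41 at 10 weeks and 11.36 to 11.99 at 5 weeks overlapped. Of 8 skeletal muscle markers 4 fell, and the means were 8.67 to 11.77 at 10 weeks and 12.17 to 13.36 at 5 weeks. Fibroblast markers fell in 6 of 7 cases, endothelial markers in 4 of 6, and nerve and Schwann cell markers in 2 of 4 with 1 higher. Of 7 basal epithelial markers 4 rose and 1 fell, and of 4 plasma cell markers 3 rose and none fell, with the highest median of the lists (1.38). Macrophage markers were mixed, with 2 of 6 higher and 3 lower, and none of 5 T and B cell markers passed. The mean of the T and B cell list was 9.07 in 5-week pool 2, against 7.16 and 7.23 in 5-week pools 1 and 3. At 10 weeks 11 of the 13 transporters that fell were lowest in pool 1, and the others, Slc36a1 and Slc38a4, in pool 3. The adipocyte, brown fat, muscle, fibroblast, endothelial and nerve lists were lowest in that pool 1. So was the plasma cell list, although 3 of its 4 markers rose. At 5 weeks 8 of the 13 were lowest in pool 1, as were the brown fat, endothelial and T and B cell lists. The adipocyte, fibroblast and nerve lists were lowest in 5-week pool 3, and the muscle, luminal, basal and macrophage lists in 5-week pool 2. The plasma cell list had the same lowest mean, 8.27, in 5-week pools 1 and 3. In 5-week pool 2, where 6 of the 13 were highest, the adipocyte, brown fat, fibroblast, nerve, plasma cell and T and B cell lists were highest. In 5-week pool 3, where 6 were highest, the muscle, endothelial and basal lists were highest. The same orders were not counted over all genes that fell. Of the 14 that rose, 8 were highest at 10 weeks in pool 1, as was the luminal list, 5 in pool 2 and 1, Slc15a2, in pool 3. No marker on these lists had a signal of 0 in any pool, which does not show that each was detected. Cd79b, of the T and B cell list, had 6.9 in 10-week pool 1, under the filter limit of 102.5. The part of cell composition in the differences of the transporters was not tested.

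**Figure D5:**
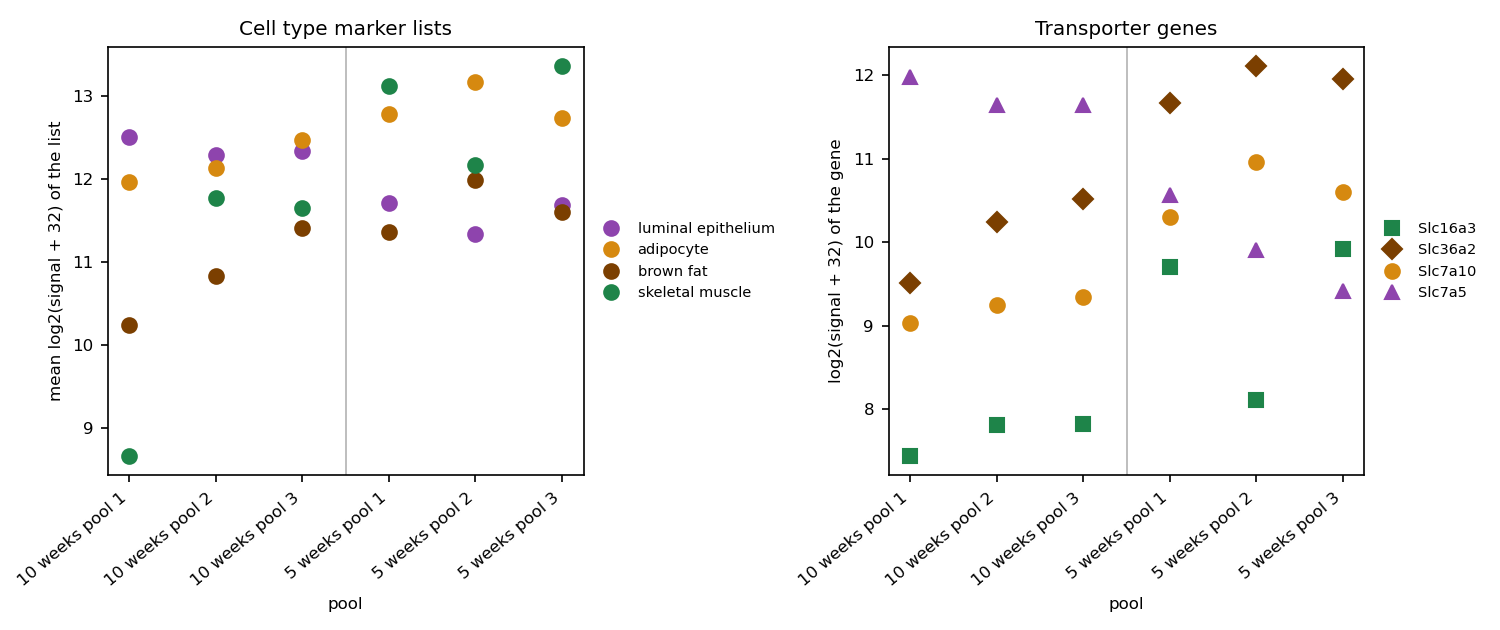
Left, mean log2(signal + 32) of 4 marker lists in each pool; right, log2(signal + 32) of Slc16a3, Slc36a2, Slc7a10 and Slc7a5 in the same pools, 10-week pools left of the grey line and 5-week pools right of it. Slc36a2 and Slc7a10 are lower and Slc7a5 is higher in every 10-week pool, and Slc16a3 and the muscle list are lowest in 10-week pool 1.

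Genes that work with these transporters were described by lists, to be read against the 15.3% of all genes tested that rose and the 18.7% that fell. In the amino acid response, through which ATF4 raises transporters and biosynthetic enzymes when amino acids are short or the endoplasmic reticulum is stressed, 10 of 20 genes rose and 1 fell, with a median difference of 0.32, where 34.1% of all genes passed in either direction. Phgdh, the first enzyme of serine synthesis, had signals of 3950.3, 4456.7 and 4400.7 at 10 weeks and 2067, 1917.7 and 2016.9 at 5 weeks (1.08 ± 0.09 SE, limma adjusted p = 0.00012). The later enzymes of serine synthesis on the list did not pass: Psat1 had a difference of -0.24 and Psph of -0.41. Aldh18a1, of proline synthesis, rose by 1.05 and Chac1, which breaks down glutathione, by 1.29, while Vldlr, a lipoprotein receptor, fell by 0.64 on the log2 scale. The probe sets of Phgdh, Aldh18a1 and Vldlr have IDs ending in _x_at, so they may match other transcripts. Atf4 itself had signals of 7365.9, 4788.4 and 6196.4 at 10 weeks and 4764.4, 3967.7 and 3293.5 at 5 weeks (0.60 ± 0.18 SE, limma adjusted p = 0.0325), and its 10-week pool 2 lay just above the highest 5-week pool.

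Of 25 genes on the amino acid breakdown list, 3 rose and 11 fell, with a median of -0.34, against 15.3% higher and 18.7% lower over all genes. The list also holds genes of synthesis, and the 11 include Csad and the glutamine synthetase gene Glul. Bcat1, the cytosolic branched-chain aminotransferase, had signals of 140.1, 146.3 and 137.1 at 10 weeks and 569.2, 320 and 540.4 at 5 weeks (-1.52 ± 0.21 SE, limma adjusted p = 0.00111). Csad, of taurine synthesis, fell (-1.17), and so did Ido1, which degrades tryptophan (-2.93). Ido1 had signals of 26.3, 46.7 and 58.9 at 10 weeks, all under the filter limit, and 589.9, 589.4 and 443.7 at 5 weeks, so it was tested only through its 5-week level and the size of its difference is uncertain. Arg2, the mitochondrial arginase, had signals of 2121.5, 1078.1 and 1483.4 at 10 weeks and 517.2, 418 and 445.7 at 5 weeks and rose by 1.65. Gldc, of glycine cleavage, had signals of 1667.4, 1740.7 and 1940.5 at 10 weeks and 188.4, 152.7 and 71.6 at 5 weeks, and rose by 3.49. Its 5-week pool 3 lay under the filter limit, so the size of that difference is uncertain. Got1, the cytosolic aspartate aminotransferase, rose by 0.95.

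In the mTORC1 amino acid sensing list 5 of 31 rose and 4 fell (median -0.09), a share near that of all genes. Sesn1, a stress-induced inhibitor of the pathway, fell (-1.42), and so did Lamtor3 (-0.43) and Mtor (-0.46), while Sesn3 rose by 0.97, Akt1s1 by 0.46 and Seh1l by 0.39. In the taurine and glutathione list 3 of 9 rose and 3 fell, with 34.1% of all genes passing: Anpep, an aminopeptidase of epithelial surfaces, rose by 1.01, Gclm by 0.80 and Gsr by 0.39, and Csad, Ado (-0.46) and Cdo1 (-0.49), the taurine synthesis genes of the list, fell. Of 14 partners of monocarboxylate transport and use, which include the SLC16 chaperones and lactate dehydrogenases, none rose and 1 fell, Ldhd (-0.46), against 34.1% of all genes passing. Of 7 genes that regulate or traffic transporters 2 passed, a share near the 34.1% of all genes: Stk39, a kinase of ion transporters, rose by 0.81 and Nedd4l, a ubiquitin ligase of membrane carriers, by 0.49. Csad and Cdo1 stand in the breakdown list as well.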

How the data were processed

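Total RNA was labelled with biotin-UTP and hybridised to 6 arrays, 1 per pool, per the labels. The deposited values are linear signal intensities scaled so that the mean is 500 on every array once 2% of probe sets at each end are trimmed, a property tested on the values. Their algorithm: not given in the sources used here. Replicate numbers follow accession order and pair nothing.

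Controls were dropped, which left 45037 probe sets. A floor of 1 was applied and values were converted to log2(value + 32). Array medians lay within 0.118, inside a tolerance of 0.2, so no normalization was added. A filter removed the dimmest 40% by mean. limma 3.58.1 (R 4.3.3; lmFit, eBayes with a variance trend, 4 residual degrees of freedom, two-sided) compared the ages over the other 27023. Symbols were updated through RefSeq GRCm38.p6, which matched 34741 of 34945. Promoter sequences are RefSeq's, and 59 of the 81 members had one, in 80 windows. An exact permutation of 3 against 3 pools cannot go below p = 0.1. The steps were tested on simulated data. Plots used Python 3.11.15 and matplotlib 3.10.9.

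The members and lists were chosen with earlier results of these data known. Values in each pool are given for up to 30 members that passed the test, by largest absolute difference, and for Slc3a2, Slc7a5, Slc7a8, Slc1a5, Slc38a2, Slc7a11, Slc6a6, Slc16a1 and Slc16a3, and from each partner list for up to 3 called genes in each direction by smallest adjusted p, of which some are given by their difference alone. Atf4, Psat1, Psph, Glul and pool values of left-out members were added after their values were seen.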

Additional observations from a re-analysis of the deposited data

How the results depend on the processing

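Of the 27 members that passed, 19 (12 higher, 7 lower) passed under every alternative in which they were tested, and none changed direction. Slc38a4, tested only through its 5-week level, is among those 7 lower. The fits with 1 pool left out kept the filter set on all 6 pools. With 1 pool left out in turn, the number of members that rose was 12 to 15 and of those that fell 7 to 11, against 14 and 13 with all pools. The 7 was found without 5-week pool 3 and an 8 without 10-week pool 1. In the partner lists 23 genes rose and 18 fell with all pools, and 14 to 22 and 14 to 19 with 1 pool left out, the 14 that rose without 10-week pool 1. An offset of 1 or a robust variance kept all 27 calls. An offset of 100 or no variance trend ended that of Slc16a7, and array weights or no filter those of Slc16a7 and Slc7a8. Median centring or quantile normalization ended Slc36a1 and Slc7a8, and the mean over probe sets ended Slc16a10, Slc16a7 and Slc38a2 and added Slc38a1. Quantile normalization added Slc38a10, Slc38a7 and Slc7a6, and leaving out 5-week pool 3 added Slc38a7. Leaving out the 60% dimmest probe sets tested 24 of the 27, and all 24 passed. Where only the fit differed, the cause of a lost call was not tested. No paired analysis was run, because nothing in the labels pairs a 10-week pool with a 5-week pool. Probe sets near background, which the filter removes, limit what can be said of 32 members.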
